A study of Bos taurus and Sus scrofa with 10 samples.

Results

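The genes described here encode 9 proteins of the adherens and tight junctions: CDH1, F11R, OCLN, CLDN1, CLDN4, CLDN6, CLDN7, TJP1 and CGN. They were chosen by name and by function, with earlier results of these data known, as the rows whose symbol equals one of these 9. The cow table held all 9 among its 22845 gene rows, and 8 of them were found among the 21867 rows for pig, where CDH1 was not analysed here. No symbol of the set had more than 1 row. Total RNA of Bos taurus (cow) and Sus scrofa (pig) was sequenced at 5 stages, with 1 library for each stage and species: oocytes, 2-4 cell embryos, 8-16 cell embryos, morulae and blastocysts. The labels name no treatment, genotype or breed, and do not say how many oocytes or embryos were pooled or whether the embryos were made in vitro. None of the differences below therefore has a replicate check, no test against replicate spread was possible, and all intervals cover counting error only.

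Adherens junctions hold neighbouring cells together through E-cadherin, whose cytoplasmic tail is anchored to actin by catenins. Tight junctions seal the space between cells: claudins, occludin and junctional adhesion molecules span the membrane, and plaque proteins such as ZO-1 and cingulin tie them to the cytoskeleton. In mammalian embryos E-cadherin adhesion accompanies compaction at the morula, and the tight junction seal of the outer cells, the future trophectoderm, lets fluid collect in the blastocyst cavity. Oocytes store RNA that the embryo uses before it transcribes its own genome.

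Levels are RPM, the reads of a gene among each 1000000 that a library holds, with no division by gene length, so a gene is compared between stages and not with another gene. Coordinates are those of the deposited tables; the submitters' processing notes name the builds UMD3.1 and Sscrofa11.1 and give no roles. Library totals ran from 3899291 to 14182046 reads in cow and from 3002751 to 4138616 in pig, and mitochondrial genes took from 2.74% to 30.2% and from 6.06% to 18.6% of the reads. The cow blastocyst library stood apart with the highest cow value of each. The next highest were those of the cow 8-16 cell library, 5432346 reads and 10.7%. A library with 0 reads of a gene allows up to 3 reads, between 0.212 and 0.769 RPM in cow and between 0.725 and 0.999 RPM in pig. The summed level of 10 oocyte markers in cow was 6091 RPM in oocytes and 0.282 RPM in blastocysts, and that of the 9 found in pig went from 7163 to 22.3 RPM. The summed level of 9 trophectoderm and epithelial markers was highest in the blastocyst library of both species, 3378 RPM in cow and 8026 RPM in pig, against 53.6 and 68.1 RPM in the oocyte libraries. In a whole embryo a change in the number of cells of a type and a change in RNA per cell cannot be told apart. A change is a difference of log2(RPM + 1), later minus earlier stage, which understates the change of low genes; a gene was compared where the higher of both levels reached 1 RPM, and called higher or lower at a difference of 2 or more.

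From oocyte to blastocyst more genes of the set were higher than lower. The set was chosen with earlier results of these data known, so its shares beside those of all genes only describe it. In cow 5 of 9 genes were called higher (F11R, CLDN4, CLDN6, CLDN7 and CGN) and 0 lower, where 21.8% of all 12738 genes compared were higher and 18.4% lower. In pig 5 of 8 were called higher (F11R, OCLN, CLDN4, CLDN6 and CLDN7) and CLDN1 was the 1 called lower, against 26% and 19.2% of 12512 genes. Every gene of the set passed the minimum level for this comparison. The median difference of the set was 2.47 in cow and 2.67 in pig, and that of all genes compared was 0.18 and 0.43. With the genes at 0 reads in oocytes, 3 in cow and 1 in pig, put at the floor of 3 reads, the medians were 2.43 and 2.67, and without those genes 1.05 and 2.39. F11R, CLDN4, CLDN6 and CLDN7 were called higher in both species, 4 of 8, where 955 of 8566 shared symbols compared in both were. Cow CLDN4, CLDN6 and CLDN7 and pig CLDN6 had 0 reads in oocytes, and pig CLDN7 had 0.888 RPM. These genes passed the minimum level through the blastocyst library alone and could only be called higher. Of the genes higher in both species, only F11R reached 1 RPM in the oocytes of both. Of the cow genes called higher, only F11R and CGN had oocyte reads. The pig rows of CLDN4 and CLDN7 overlap other genes, as described with their values, and without them 3 of 6 pig genes were higher.

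**Figure D1:**
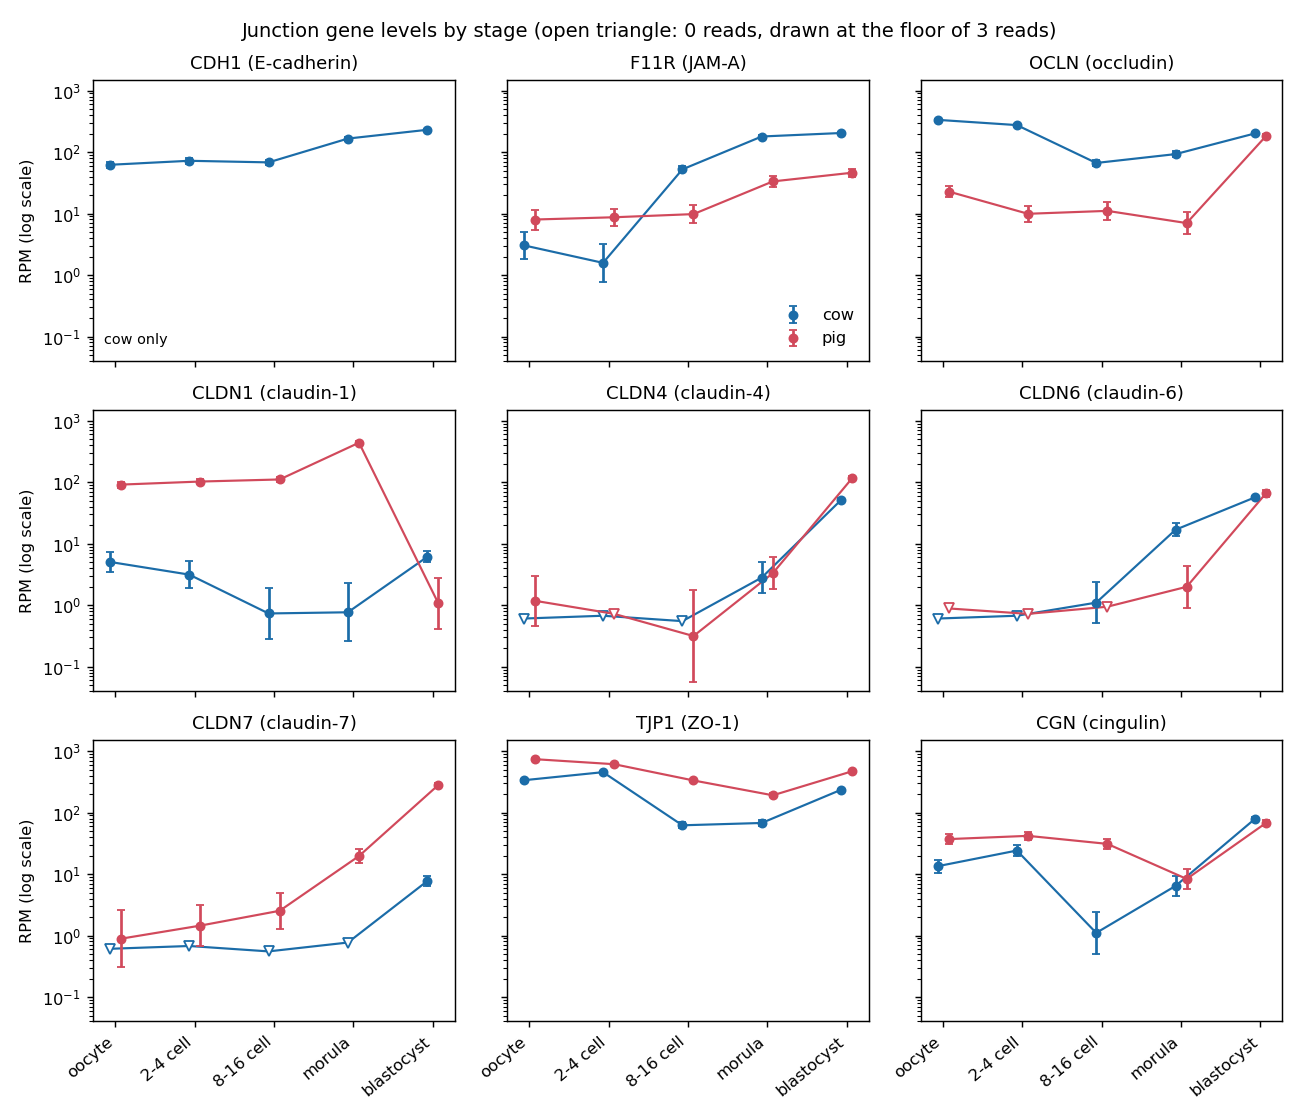
Level of each junction gene by stage, in RPM on a log axis, for cow (blue) and pig (red); bars are 95% Wilson intervals of the read count and open triangles mark 0 reads, drawn at the floor of 3 reads. CLDN4, CLDN6 and CLDN7 are highest in the blastocyst library of both species, while TJP1 and cow OCLN have their highest value before the 8-16 cell stage and pig CLDN1 has its highest value, 440.6 RPM, in the morula library.

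CDH1 encodes E-cadherin, the adhesion receptor of the adherens junction, and lies on cow chromosome 18 at 36221702 to 36243479 on the plus strand. Its cow levels in RPM were 62.1 (oocyte; 95% Wilson 55.5 to 69.4), 72.1 (2-4 cell), 67.9 (8-16 cell), 166 (morula) and 230.1 (blastocyst; 222 to 238). The intervals of the first 3 libraries overlapped, and both later libraries lay above them and apart from each other. CDH1 RNA was thus present in every cow library, including the oocyte. The blastocyst level was 3.71-fold that of the oocyte (3.30 to 4.18), a difference of 1.87, which missed the threshold. Scaled to non-mitochondrial gene reads the difference was 2.28, and after quantile normalisation 2.39, both past it.

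F11R encodes the junctional adhesion molecule JAM-A, an early component of forming tight junctions. In cow (chromosome 3, 8483556 to 8508122, plus strand) its levels in RPM were 3.04 (oocyte), 1.58 (2-4 cell), 52.3 (8-16 cell), 179 (morula) and 204 (blastocyst). The 2 earliest libraries had 15 and 7 reads, and their intervals overlapped. The step to the 8-16 cell stage was 33.2-fold (15.9 to 83.2), a difference of 4.37, and F11R was the only cow gene of the set called higher at that step. In pig (chromosome 4, 89424839 to 89447909, plus strand) the levels were 7.99, 8.70, 9.79, 33.3 and 46.1 RPM in the same order of stages. The first 3 pig libraries overlapped in their intervals, as did those of morula and blastocyst, whose ratio was 1.39 (1.08 to 1.79). The pig row encloses a SNORA19 row with 0 reads. From oocyte to blastocyst F11R differed by 5.66 in cow, 67.0-fold (40.6 to 119.9), and by 2.39 in pig, 5.77-fold (3.83 to 9.01).

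OCLN encodes occludin, a membrane protein of tight junctions with several membrane spans. In cow (chromosome 20, 10154909 to 10201157, minus strand) its levels in RPM were 334 (oocyte), 274 (2-4 cell), 66.5 (8-16 cell), 92.6 (morula) and 201 (blastocyst). The cow oocyte library was thus the highest, and no 2 of these levels overlapped in their counting intervals. The cow fall from the 2-4 cell to the 8-16 cell stage was 4.13-fold (3.67 to 4.66), a difference of -2.03, and under the 3 other scalings it missed the threshold, at -1.82 to -1.70. In pig (chromosome 16, 47600180 to 47652445, plus strand) OCLN was at 22.8, 9.91, 11.05, 6.99 and 182 RPM from the oocyte to the blastocyst. The pig blastocyst library stood alone at the top, 26.1-fold above the morula library (16.9 to 42.4). Both rows enclose a U6 row that had 0 reads in every library.

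The claudins form the paired strands that close the gap between cells, and different claudins give the seal different permeability. CLDN4 encodes claudin-4, and its cow row lies on chromosome 25 at 33988117 to 33989662 on the minus strand. It had 0 reads in the 3 earliest cow libraries, 2.82 RPM in morulae (11 reads) and 51.6 RPM in blastocysts. The cow blastocyst level was at least 84.8-fold higher than the oocyte level and 18.3-fold above the morula library (10.2 to 36.8). In pig (chromosome 3, 11039706 to 11053923, plus strand) CLDN4 had 4 reads in oocytes (1.18 RPM), 0 reads in 2-4 cell embryos, 1 read in 8-16 cell embryos, 3.33 RPM in morulae and 116.9 RPM in blastocysts. The pig blastocyst level was 98.7-fold that of the oocyte (38.3 to 363.9) and 35.1-fold that of the morula (18.9 to 73.7). Both species thus had their CLDN4 reads nearly all in the last library.

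CLDN6 encodes claudin-6, a claudin known from embryonic epithelia and from pluripotent cells. In cow (chromosome 25, 2435644 to 2438483, minus strand) it had 0 reads in oocytes and 2-4 cell embryos, 1.10 RPM in 8-16 cell embryos (6 reads), 16.9 RPM in morulae and 56.9 RPM in blastocysts. In pig (chromosome 3, 39171390 to 39172135, plus strand) it had 0 reads in the first 3 libraries, 2.00 RPM in morulae (6 reads) and 66.5 RPM in blastocysts. The last library was the highest in both species. In cow the called step was that to the morula, 15.3-fold (6.68 to 43.3), and the step to the blastocyst was 3.36-fold (2.61 to 4.39), short of the threshold. In pig the called step was that to the blastocyst, 33.3-fold (15.1 to 91.6). From oocyte to blastocyst CLDN6 was at least 93.5-fold higher in cow and at least 74.9-fold higher in pig.

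CLDN7 encodes claudin-7, found along lateral membranes of epithelial cells as well as at the tight junction. In cow (chromosome 19, 27602595 to 27604817, minus strand) it had 0 reads in 4 libraries and 7.69 RPM (109 reads) in the blastocyst library, at least 12.6-fold higher than in the oocyte library. In pig (chromosome 12, 52611168 to 52628376, minus strand) the row had 3 reads in oocytes (0.888 RPM), then 1.45, 2.53 and 19.7 RPM, and 281 RPM in blastocysts. The ratio of the pig blastocyst to the oocyte library was 316 (108 to 1536). The 3 earliest pig libraries overlapped in their intervals, and the morula and blastocyst libraries each stood apart above them.

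The pig CLDN7 row shares 3887 bases with the row of ELP5, a gene of the Elongator complex on the opposite strand, which is 22.6% of the CLDN7 row and 43.3% of the ELP5 row. The reads of both rows were nearly equal in the pig 2-4 cell, morula and blastocyst libraries: CLDN7 had 3, 6, 8, 59 and 1048 reads from oocyte to blastocyst, and ELP5 had 6, 6, 12, 62 and 1041. In cow the rows lie 130 bases apart, and ELP5 there had between 34.9 and 63.7 RPM in all 5 libraries while CLDN7 had reads in the blastocyst library alone. The pig CLDN4 row likewise shares 720 bases with METTL27 on the opposite strand, which had 0 reads in the first 3 pig libraries, 10 reads in morulae and 325 in blastocysts, next to 10 and 436 of CLDN4. In cow these 2 rows lie 892 bases apart, with 26 METTL27 reads and 732 CLDN4 reads in the blastocyst library. How the counting treated strand is not given in the sources used here, so reads of overlapping rows cannot be told apart, and the pig values of CLDN4 and CLDN7 are uncertain to that extent.

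**Figure D2:**
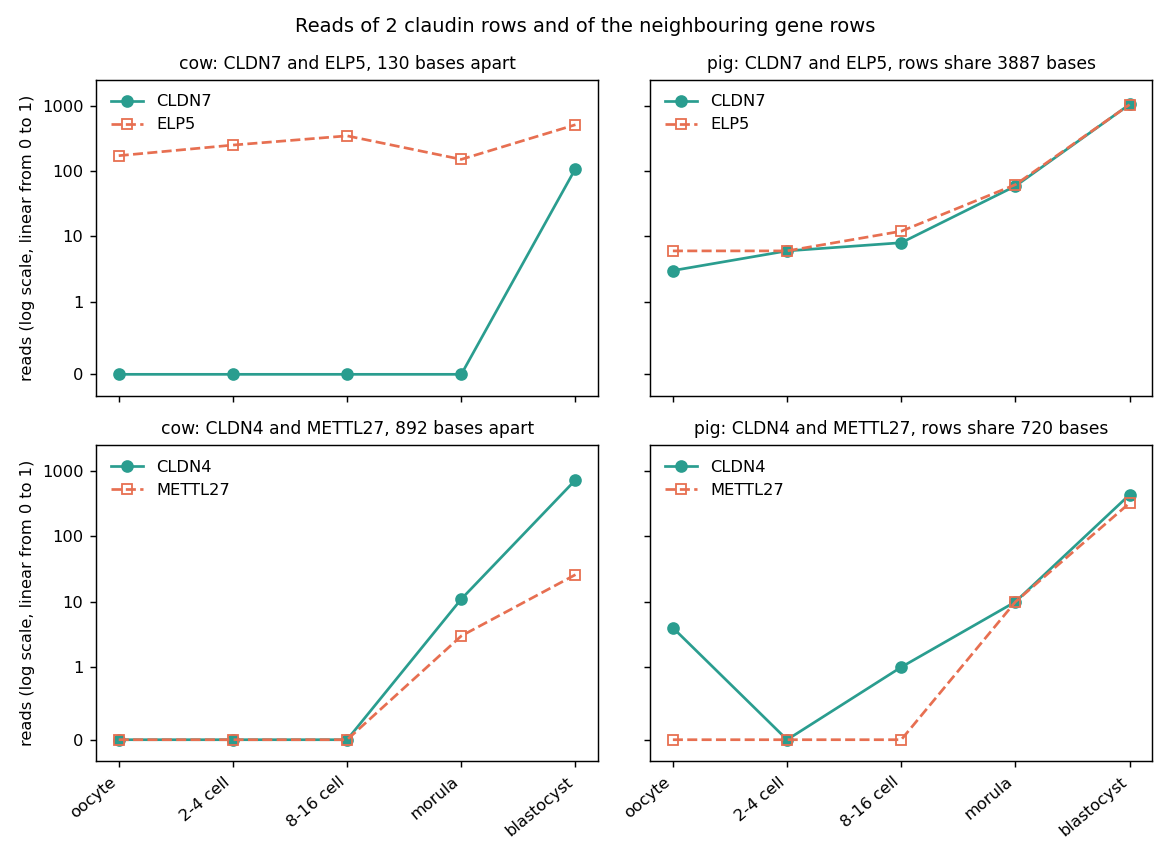
Reads per library of CLDN7 and ELP5 (top) and of CLDN4 and METTL27 (bottom) by stage, on a log axis that is linear from 0 to 1, for cow (left) and pig (right). In pig, where the rows overlap, the last 2 stages have 59 and 1048 reads for CLDN7 and 62 and 1041 for ELP5, and 10 and 436 for CLDN4 and 10 and 325 for METTL27. In cow CLDN7 and ELP5 lie apart at every stage, and CLDN4 and METTL27 are both at 0 in the first 3 and lie apart in blastocysts (732 and 26).

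CLDN1 encodes claudin-1, a barrier-forming claudin of many epithelia, and it ran differently from the other 3 claudins. In cow (chromosome 1, 77596386 to 77611958, plus strand) its levels in RPM were 5.07 (oocyte), 3.15 (2-4 cell), 0.736 (8-16 cell, 4 reads), 0.769 (morula, 3 reads) and 6.13 (blastocyst). The cow oocyte and blastocyst libraries did not differ beyond counting error (1.21-fold, 0.768 to 1.97); the difference was 0.23, and -0.27 after quantile normalisation. In pig (chromosome 13, 127710737 to 127730765, minus strand) it was at 91.8, 103, 111 and 441 RPM up to the morula and at 1.07 RPM (4 reads) in the blastocyst library. The pig morula library was thus the highest of the 5 pig libraries and the pig blastocyst library the lowest, both apart from the 3 earliest, which overlapped. The step to the pig morula was 3.96-fold (3.52 to 4.47), a difference of 1.98, just short of the threshold, and 2.03 after quantile normalisation. The step to the pig blastocyst was a fall of 411-fold (160 to 1510), a difference of -7.74, the opposite direction to the cow step, whose difference was 2.01 and 1.89 after quantile normalisation.

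TJP1 encodes ZO-1, the scaffold that links claudins and occludin to actin. In cow (chromosome 21, 28934158 to 28992880, minus strand) its levels in RPM were 335 (oocyte), 454 (2-4 cell), 62.04 (8-16 cell), 67.7 (morula) and 235 (blastocyst). The cow 8-16 cell and morula libraries overlapped in their intervals, and the 2-4 cell library was the highest. The cow fall to the 8-16 cell stage was 7.31-fold (6.51 to 8.23), a difference of -2.85. In pig (chromosome 1, 144930347 to 145196016, minus strand) the levels were 738, 612, 333, 191 and 470 RPM, with the lowest value in the morula library. No pig step of TJP1 passed the threshold. From oocyte to blastocyst TJP1 differed by -0.51 in cow and -0.65 in pig, neither of them called, and the cow value was 0.12 after quantile normalisation.

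CGN encodes cingulin, which binds ZO-1 on the inner face of the tight junction. In cow (chromosome 3, 19290676 to 19309322, minus strand) its levels in RPM were 13.4 (oocyte), 24.1 (2-4 cell), 1.10 (8-16 cell, 6 reads), 6.41 (morula) and 78.9 (blastocyst). In pig (chromosome 4, 97704809 to 97730106, minus strand) it was at 37.01, 41.8, 30.95, 8.33 and 67.8 RPM. In both species the blastocyst library was the highest and a library between the oocyte and the blastocyst the lowest, the 8-16 cell library in cow and the morula library in pig. The cow fall to the 8-16 cell stage was 21.8-fold (9.70 to 60.8). The following rise to the blastocyst was 12.3-fold from the cow morula (8.29 to 19.1) and 8.15-fold from the pig morula (5.39 to 12.8).

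From the oocyte to the 2-4 cell stage 0 of the 6 cow genes and 0 of the 7 pig genes compared were called; of all genes compared 0.196% were higher and 0.178% lower in cow, and 3.26% and 2.17% in pig. Of all called genes 52.4% were higher in cow and 60.0% in pig, and with median scaling 19.1% and 81.4%. From the 2-4 cell to the 8-16 cell stage F11R was higher and OCLN, TJP1 and CGN were lower in cow, that is 1 and 3 of the 7 compared, where 12.6% of all genes compared were higher and 14.6% lower. Under each of the 3 other scalings cow OCLN was not called, and 2 genes were lower in place of 3. In pig 0 of the 6 compared were called at that step, against 4.33% higher and 0.543% lower of all genes compared. The higher share of all called genes at that step was 46.5% in cow and 62.7% with median scaling, and 88.8% in pig and 62.7% after quantile normalisation. Beside the cow falls of OCLN, TJP1 and CGN, the summed level of the 11 cumulus cell markers found went from 411 RPM at the 2-4 cell stage (4 of 11 at 0 reads: AMH, CYP11A1, FST and TNFAIP6) to 108 RPM at the 8-16 cell stage (3 of 11 at 0 reads), as did that of the 10 oocyte markers, from 5468 to 788 RPM; their part in the result was not tested.

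At the step to the morula 1 gene was called higher in each species, CLDN6 of the 7 compared in cow and CLDN7 of the 8 in pig, and 0 lower. The pig CLDN7 row overlaps ELP5 and is uncertain, with 59 reads in morulae next to 62 of ELP5. Without CLDN4 and CLDN7, 0 pig genes were called higher at this step. Of all genes compared 6.67% were higher and 5.15% lower in cow, and 12% and 11.3% in pig. The cow differences of F11R, CLDN4 and CGN lay close below the threshold, at 1.76, 1.71 and 1.82, and in pig those of CLDN1, CLDN4 and F11R, at 1.98, 1.72 and 1.67, with CGN at -1.78. With median scaling pig CGN reached -2.01 and was called lower, and the higher share of all called pig genes was 40.7% in place of 51.7%.

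Between morula and blastocyst CLDN1, CLDN4, CLDN7 and CGN were higher in cow, 4 of 9, with 0 lower, where 11.9% of all genes compared were higher and 11.5% lower. In pig OCLN, CLDN4, CLDN6, CLDN7 and CGN were higher, 5 of 8, and CLDN1 was lower, where 13.8% of all genes compared were higher and 13.8% lower. CLDN4, CLDN7 and CGN were called higher in both species, 3 of 8, where 355 of 8482 shared symbols compared in both were, and CLDN1 was opposite, as were 109 of the 8482. The pig rows of CLDN4 and CLDN7 are the uncertain ones. Cow CLDN7 (0 reads) and cow CLDN1 (0.769 RPM) were under 1 RPM in morulae and could only be called higher. TJP1 was at 1.78 in cow and 1.30 in pig, and passed the threshold in cow when scaled to non-mitochondrial gene reads (2.07) and after quantile normalisation (2.30). KRT8, a keratin of simple epithelia and a marker of trophectoderm, went at the same step from 2 reads to 1490 RPM in cow and from 1 read to 3629 RPM in pig. All 9 trophectoderm and epithelial markers found in each species had over 3 reads in the blastocyst library. In the morula library 4 of 9 did so in cow and 3 of 9 in pig. The cow oocyte, 2-4 cell and 8-16 cell libraries each had 6 of 9. These counts also depend on depth, and the cow blastocyst library held 14182046 reads against 3899291 in the cow morula library. The part of these markers in the junction gene changes was not tested.

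**Figure D3:**
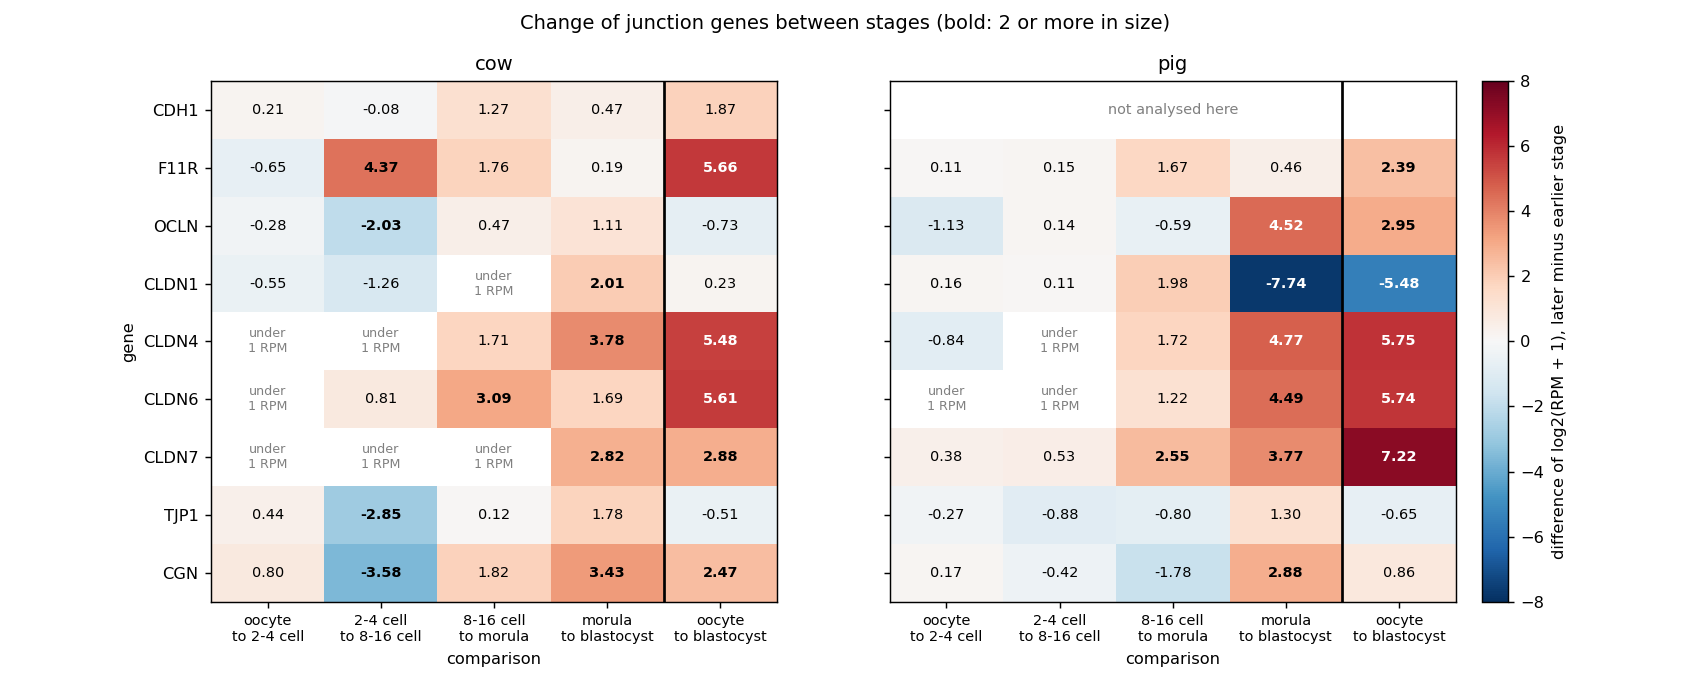
Difference of log2(RPM + 1) between stages for each junction gene in cow (left) and pig (right), red for higher and blue for lower at the later stage; the last column of each panel compares the oocyte with the blastocyst. Bold values are 2 or more in size, and cells marked as under 1 RPM were not compared. In cow 3 genes are lower at the 8-16 cell stage, and in both species most bold values above 0 lie between morula and blastocyst and in the last column.

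A list of 49 further junction genes was set beside the 9, of which 47 were found in cow and 43 in pig. From oocyte to blastocyst 6 were higher and 5 lower of the 37 compared in cow, with a median difference of 0.48, against 21.8% higher and 18.4% lower of all genes compared, so that both shares of the list lay below those of all genes. In pig 13 were higher and 4 lower of 32 compared, with a median of 0.93, against 26% higher and 19.2% lower, so that the higher share lay above that of all genes and the lower share below. Of 30 genes compared in both species 5 were higher in both (JUP, NECTIN2, NECTIN4, TJP3 and PRKCZ), 2 were lower in both (CDH3 and CGNL1) and 0 moved in opposite directions; over all 8566 shared symbols compared in both, 955 were higher in both, 727 lower in both and 260 opposite. By role, 3 of 12 further adherens junction genes were higher in cow and 6 of 10 in pig, 1 being lower in each. NECTIN4 and CDH3 are named here after their values were seen. Among further claudins 0 were higher and 2 lower of 6 in cow, and 1 was higher of 2 in pig. Of other membrane proteins of the tight junction 0 of 6 were called in cow and 3 of 5 were higher in pig. Among plaque and polarity genes 3 were higher and 2 lower of 13 in cow, and 3 and 3 of 15 in pig.

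The 6 genes of that list with the largest called difference in each species were named. JUP, which encodes plakoglobin, a catenin shared by adherens junctions and desmosomes, had the largest in both. JUP had 2 reads in cow oocytes, 0 reads in 2-4 cell embryos, 11.8 RPM in 8-16 cell embryos, 8.98 RPM in morulae and 97.5 RPM in blastocysts, a ratio of 240 over the oocyte (66.4 to 1987). In pig JUP went from 3 reads through 1.93, 6.95 and 91.6 RPM to 292 RPM, a ratio of 328 (112 to 1595). TJP3, which encodes ZO-3, had 0 reads in cow oocytes and 46.3 RPM in cow blastocysts (at least 76.01-fold higher), and 50.4 RPM in pig, 28.4-fold (12.8 to 78.3), where its row overlaps APBA3. Nectin-2 is an adhesion protein of the adherens junction, and its gene (PVRL2 in the cow table, NECTIN2 in pig) reached 27.2 RPM in cow, at least 44.6-fold higher, and 70.8 RPM in pig, at least 79.7-fold higher, where its row overlaps an unnamed gene.

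CGNL1 encodes paracingulin, the relative of cingulin at both kinds of junction, and it was lower in both species, while CGN was higher in cow and not called in pig. It fell 9.69-fold in cow (8.42 to 11.2), from 177 RPM in the oocyte library to 18.3 RPM in the blastocyst library, and at least 72.9-fold in pig, from 58.6 RPM to 0 reads. CLDN11 in cow had 10.6 RPM in oocytes and 0 reads in blastocysts, at least 49.9-fold lower. CLDN8 in pig had 0 reads in oocytes and 63.8 RPM in blastocysts, at least 71.8-fold higher. PRKCZ, which encodes an atypical protein kinase C of the polarity machinery, rose in cow from 1.62 to 75.1 RPM, 46.3-fold (23.4 to 107.5), and its row encloses a U6 row. MAGI2 in pig, a gene of a scaffold protein, went from 43.2 RPM to 2 reads, a ratio of 80.6 (21.9 to 672).

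**Figure D4:**
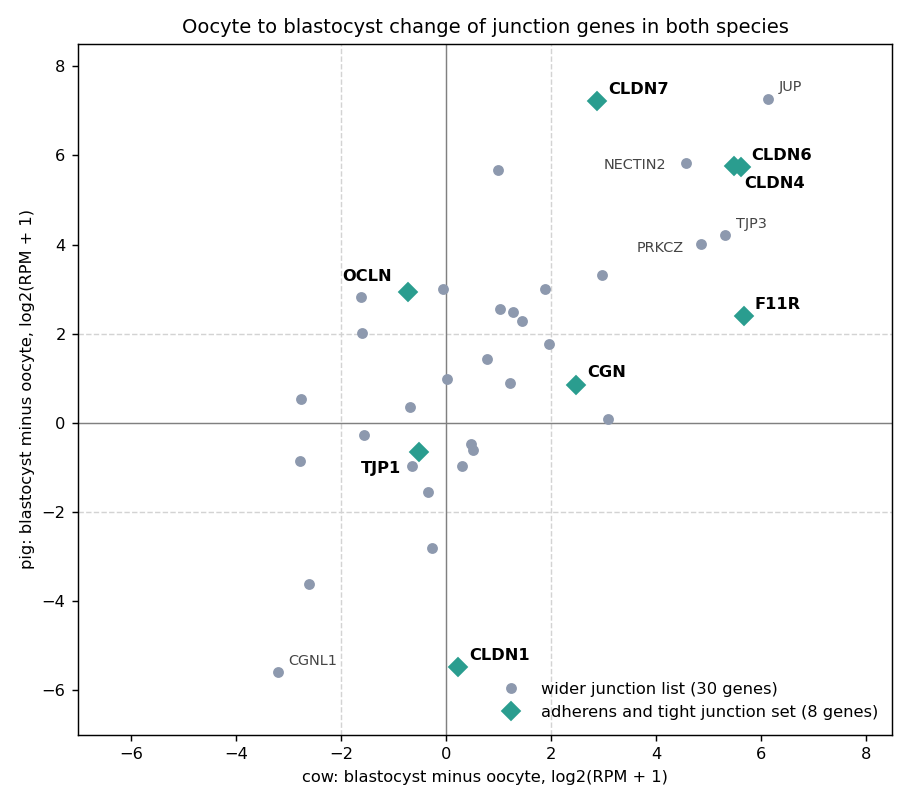
Difference of log2(RPM + 1) from oocyte to blastocyst in cow (horizontal) and pig (vertical) for the 8 junction genes with a row in both tables (diamonds) and for 30 further junction genes compared in both (dots); dashed lines mark a difference of 2. F11R, CLDN4, CLDN6 and CLDN7 lie beyond 2 in both species, OCLN beyond 2 in pig only and CGN in cow only, and CLDN1 lies near 0 in cow and at -5.48 in pig.

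Within the set, profiles were compared over the 10 libraries by the root mean square difference of log2(RPM + 1) after each gene was centred on its mean within a species. CLDN4 and CLDN6 were the closest pair at 0.65, followed by TJP1 and CGN at 0.95 and by CLDN4 and CLDN7 at 0.95. CLDN4 and CLDN6 had at most 6 reads in every library before the morula, and cow CLDN7 had 0 reads before the blastocyst. The distances among these claudins therefore rest in part on values at or near 0 reads. The pig rows of CLDN4 and CLDN7 also overlap other genes. CLDN1 was the farthest from the other claudins, at 3.53 from CLDN7, 3.68 from CLDN4 and 3.69 from CLDN6. Profiles were also compared with all 6278 shared symbols that reached 10 RPM in some library of each species. COPB2, a coat protein of vesicles, lay at 0.32 from TJP1. COPB2 was at 345, 498, 59.8, 91.8 and 137 RPM in cow and at 291, 224, 155, 99.6 and 160.3 RPM in pig. In pig both genes had their lowest level in morulae.

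The 2 nearest profiles of CLDN4 were CTSA, a lysosomal carboxypeptidase, at 0.34, and MYL6, a myosin light chain, at 0.47. CLDN6 was nearest to DSG3, a desmosomal cadherin, at 0.39, and to ANXA2, a membrane-binding annexin, at 0.53. CLDN7 was nearest to PTGES at 0.41 and to TYRO3 at 0.42. F11R was nearest to SNX18 at 0.41 and SPTSSA at 0.49, OCLN to PGD at 0.39 and CLSTN1 at 0.45, and CGN to PRDX2 at 0.41 and RFC2 at 0.50. CLDN1 had no close match, the nearest being RGS22 at 0.76 and HYDIN at 0.83. These distances describe 10 libraries with 1 per stage.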

How the data were processed

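Per the labels' protocols, RNA was isolated with the PicoPure kit, turned into libraries with the Ovation RNA-Seq system and amplified by PCR (8 cycles), so reads are not independent molecules. The submitters' processing notes name Trim Galore 0.6.4, HISAT2 2.1.0 and the builds UMD3.1 and Sscrofa11.1; the counting, annotation, strand and duplicate handling are not given in the sources used here. The authors deposited log2 values, 1 table per species. From the values, these are log2 RPM of the library total, with 0 reads written as 0.9 of a read, and at least 99.97% of values above that are whole reads within 0.02 of a read.

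Reads and RPM were recovered with Python 3.11.15, numpy 2.4.6 and pandas 2.3.3. Differences used the deposited values with a pseudocount of 1 RPM, a minimum of 1 RPM in one of both stages and a threshold of 2. Intervals are 95% Wilson intervals for levels and exact conditional binomial intervals for ratios (scipy 1.17.1). Folds against 0 reads are lower bounds against 3 reads per library. Each species was analysed within its own table. Named genes of the further list are the 6 with the largest called oocyte to blastocyst difference per species, and the 2 nearest profiles per gene. One of these profiles is not reported here. The genes and lists were chosen with earlier results of these data known. The 9 alternative settings were a pseudocount of 0.5 RPM, no minimum, a minimum of 5 RPM, 3 scalings (non-mitochondrial gene reads, median, quantile), a threshold of 1, summed repeated symbols and 0 reads as 0 RPM. For the nearest profiles, 13250 symbols were shared.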

Additional observations from a re-analysis of the deposited data

Results flagged for a closer look

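For 4 changes the cow and pig libraries moved in opposite directions, each beyond its own counting interval; the difference between the species was not tested, since each stage had 1 library. CLDN1 from the morula to the blastocyst differed by 2.01 in cow and -7.74 in pig, the only 1 of the 4 called in both species. The cow rise of CLDN1 started from 3 reads in morulae, and at 1.89 it was not called after quantile normalisation. In pig the blastocyst library had 4 CLDN1 reads. OCLN from the oocyte to the blastocyst differed by -0.73 in cow and 2.95 in pig. CGN from the 8-16 cell stage to the morula differed by 1.82 in cow and -1.78 in pig. TJP1 from the oocyte to the 2-4 cell stage differed by 0.44 in cow and -0.27 in pig, and the pig value was 0.05 with median scaling.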

How the results depend on the processing

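Of the counts of called genes, those between 8-16 cell embryos and morulae depended most on the settings. The 1 gene called higher there in cow became 3 with a pseudocount of 0.5 RPM, 3 when scaled to non-mitochondrial gene reads and 5 with a threshold of 1. The 1 called higher in pig became 2 with a pseudocount of 0.5 RPM, 2 after quantile normalisation and 5 with a threshold of 1, and the 0 called lower in pig became 1 with median scaling, 1 after quantile normalisation and 1 with a threshold of 1. A threshold of 1 also gave 7 higher in place of 4 at the cow step to the blastocyst and 1 lower in place of 0 at the first pig step. The 3 called lower in cow between 2-4 cell and 8-16 cell embryos became 2 under each of the 3 scalings and 4 with a threshold of 1. Leaving out CLDN4 and CLDN7, chosen after seeing the data, gave 3 higher in place of 5 in pig from oocyte to blastocyst, 3 in place of 5 at the step to the blastocyst and 0 in place of 1 at the step to the morula. No called gene changed direction under the 9 settings. Writing 0 reads as 0 RPM, also added after seeing the data, changed no call of the set. The 3 scalings moved the median of all genes by up to 0.42 in cow and by as much as -0.41 in pig from oocyte to blastocyst, so changes of that size are not told apart from scale; the cause of these shifts was not tested. No paired analysis was possible because each stage of each species had 1 library. Depth limits the values with few reads: cow CLDN1 at the 8-16 cell stage and morula, and CLDN4, CLDN6 and CLDN7 before the morula.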

Other observations

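A few further junction and polarity genes had their highest level at an intermediate stage; they were picked after their values were seen. JAM2, which encodes a junctional adhesion molecule related to JAM-A, had 1 read in cow oocytes, 0 reads in 2-4 cell embryos, 97.6 RPM in 8-16 cell embryos (95% Wilson interval 89.6 to 106.2), 38.98 RPM in morulae and 1.06 RPM in blastocysts. In pig JAM2 stayed at or below 7.58 RPM, and its row overlaps MRPL39. PARD3 and PARD6B encode partners in the complex that sets apical polarity. PARD3 reached 763 RPM in cow morulae (736 to 791), against 117 RPM in 8-16 cell embryos and 276 RPM in blastocysts, and 115 RPM in pig morulae. PARD6B reached 892 RPM in pig morulae (859 to 927), against 178 RPM in 8-16 cell embryos and 127 RPM in blastocysts, and stood at 11.8 RPM in cow morulae. The pig PARD6B row overlaps RIPOR3, so part of its reads is not certain.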
